A study of Homo sapiens with 6 samples.

Results

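DU145 cells, a human prostate cancer cell line that carries the c-MET receptor, were exposed to hepatocyte growth factor (HGF) for 8 hours (8 h), and their transcripts were compared with those of cells given vehicle for the same 8 h. The 2 arrays were taken by their time label from the 6 arrays of the study, which holds 1 vehicle array and 1 HGF array at each of 2, 8 and 24 h. All cells were seeded overnight in RPMI with fetal calf serum, moved to RPMI with dextran charcoal treated (DCC) serum the day before treatment, and then given 25 ng/ml HGF or vehicle, so both arrays share the steroid-stripped medium and differ by the labels in HGF alone. The model is 1 cell line in culture with 1 array a side. There is therefore no replicate error and no p-value, and a difference between the arrays holds for those RNA samples only.

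HGF is a secreted growth factor, made mainly by stromal cells, that binds the receptor tyrosine kinase c-MET on epithelial cells. The receptor passes its signal through RAS and the kinases MEK and ERK as well as through PI3K, and carcinoma cells that answer to HGF scatter, migrate and invade. ERK signalling first raises immediate early genes, which need no new protein, and then feedback genes and late targets that dampen or carry on the signal.

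The array is an Affymetrix U133plus2.0 chip, on which a gene is read by 1 or more probe sets. The deposited intensities were scaled to a mean of 150 per array and values under 30 were raised to 30, a floor under which levels have no order. A log2 ratio is that of HGF over vehicle, averaged over the probe sets of a gene. Of 19775 genes with a probe set of 1 symbol, 10460 were above the floor on at least 1 of the 2 arrays. The mean deposited intensity was 205.4 for vehicle and 186.9 for HGF, in a range of 149.1 to 205.4 over the 6 arrays. Epithelial markers were well above the floor on the vehicle and the HGF array, with KRT18 at 5957 and 7595, KRT8 at 1587 and 2797 and the adhesion molecule CDH1 at 718 and 669. The leukocyte marker PTPRC was under the floor at 5.70 and 6.34, and none of the leukocyte list was above it.

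A gene was counted as higher or lower where at least 1 probe set differed by 2-fold and the mean over its probe sets by 1.4-fold in the same direction. By this rule 532 genes were higher with HGF at 8 h, or 5.09% of the genes above the floor, and 1580 were lower, or 15.1%. This split depended on the scaling. With quantile normalization 1087 genes were higher (10.4%) and 1004 lower (9.59%), and it moved the median ratio of all genes by 0.127 on the log2 scale, from -0.04 to 0.09. Both scalings held 520 higher and 992 lower genes. The ratio followed the level, with a median over probe sets of -0.29 at a level of 60 to 100 and of 0.16 at 1000 to 3000, while after quantile normalization it lay between 0 and 0.06 in every range of level. Bacterial poly-A RNAs, which are added to the RNA before labelling, were higher on the HGF array for all 24 of their probe sets, with a median log2 ratio of 1.00. These RNAs also varied between the other arrays. Their mean scaled signal was 187 with vehicle and 376 with HGF at 8 h. It was 623 and 324 at 2 h, the other way round, and 464 and 517 at 24 h. Scaling to the poly-A RNAs lowered the median ratio of all genes at 8 h by 0.65, to -0.69, and left 19 higher genes. The 18 probe sets of hybridisation controls had a median of -0.03. The part of the input RNA in these differences was not tested.

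The arrays of 8 h also stood apart from the other times. Among all genes above the floor, the HGF array of 8 h was the highest of the 6 for 31.2% and the lowest for 29.5%, and the vehicle array of 8 h was the highest for 28.7% and the lowest for 14.8%. No other array took more than 14.7% at either end. Of the 532 higher genes, HGF at 8 h was above the other 5 arrays for 460, and vehicle at 8 h was below the other 5 for 294. Of the 1580 lower genes, HGF at 8 h was below the other 5 arrays for 1441 and vehicle at 8 h above them for 1268, so for most of them both arrays of the pair lay at opposite ends. With the average of vehicle at 2 and at 24 h in its place, the HGF array of 8 h had 282 higher genes (2.69%) and 546 lower genes (5.21%). Between vehicle arrays, which share the array of 8 h, vehicle at 8 h had 56 genes higher (0.542%) and 39 lower (0.377%) than at 2 h, and 594 higher (5.72%) and 49 lower (0.472%) than at 24 h. Among HGF arrays, which share that of 8 h, the array of 8 h had 399 genes higher (3.9%) and 912 lower (8.92%) than at 2 h, and 239 higher (2.34%) and 458 lower (4.49%) than at 24 h. Of genes with 2 or more probe sets above the floor, all of them had the same direction in 248 of 257 higher and 1097 of 1146 lower genes, which the rule on the mean favours, and all of them differed by 2-fold in 46 and 348. A probe set at the floor on 1 of the arrays makes the ratio a lower bound, written as "at least" for higher and "at most" for lower genes, and this held for 77 higher and 600 lower genes.

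The genes were then read by function, in lists, and a gene such as IER3 or USP1 can be on several of them. The largest shares of higher members were 12 of 27 for feedback genes and late targets of ERK, 11 of 26 for immediate early genes and 7 of 17 for NF-kB genes, of which 3 were lower. The largest shares of lower members were 26 of 49 for DNA repair, 19 of 42 for ubiquitin-specific proteases and 29 of 68 for mitosis. These order the lists that the next paragraphs describe, and the 58 lists looked at held 5 or more members above the floor each.

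**Figure D1:**
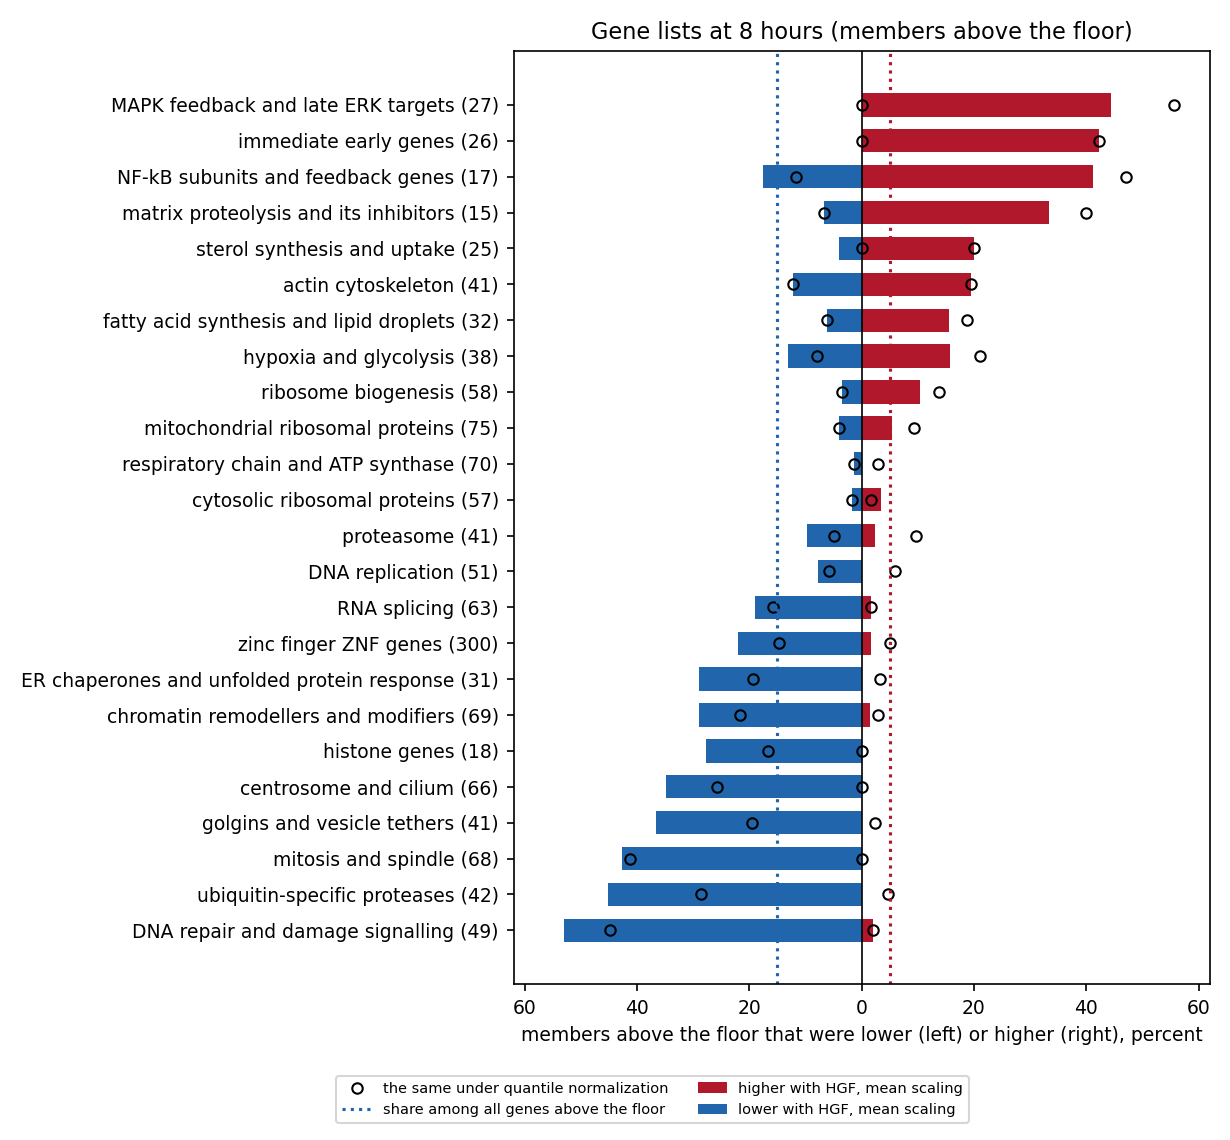
Share of the members above the floor that were lower (left) or higher (right) with HGF at 8 h, in percent, for the gene lists named on the axis. Bars are arrays scaled to a mean of 150, circles are quantile normalized arrays, and dotted lines mark the shares of all genes, 15.1% lower and 5.09% higher, so a bar past its line holds more such genes than the array as a whole.

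Immediate early genes encode transcription factors and RNA-binding proteins that cells switch on within minutes of a growth factor. EGR1, a zinc finger transcription factor, had a scaled signal of 246 with vehicle and 1412 with HGF at 8 h in its brightest probe set, after 521 and 2836 at 2 h and before 320 and 1228 at 24 h. All 3 HGF arrays lay above all 3 vehicle arrays. Its log2 ratio at 8 h was at least 2.25. CSRNP1, a nuclear transcription factor, read 56.6 and 247 at 8 h, a log2 ratio of 2.13, and ZFP36, which marks messenger RNAs for decay, had a ratio of 1.74. The genes IER3, IER2 and JUNB, the last a subunit of the transcription factor AP-1, had ratios of 1.49, 1.48 and 1.46. Of 26 members above the floor 11 rose and 0 fell, or 42.3% of them against 5.09% of all genes. The median of the list was 0.43, or 0.64 after quantile normalization, and turned to -0.17 when the arrays were scaled to the poly-A RNAs, where the median of all genes was -0.69. Not every member was higher. MYC had a ratio of 0.46 and ATF3, a stress-responsive factor, one of -0.21.

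The start of EGR1 is shown because serum response factor binds CArG boxes, and its RefSeq promoter holds 2 of them in 300 bases, 250 before and 50 after the transcript start (GRCh38.p14, chr5:138465229-138465528, plus strand). Capitals mark the CArG boxes.
EGR1: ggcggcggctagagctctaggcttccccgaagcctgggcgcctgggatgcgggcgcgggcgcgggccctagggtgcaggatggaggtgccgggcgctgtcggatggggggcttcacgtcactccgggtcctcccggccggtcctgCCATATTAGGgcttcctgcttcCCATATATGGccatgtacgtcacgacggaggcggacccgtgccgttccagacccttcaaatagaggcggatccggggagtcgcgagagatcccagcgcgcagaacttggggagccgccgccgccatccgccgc
A CArG box on either strand was found in 2 of 19 promoters of immediate early genes, in 0.981% of 8661 promoters of genes above the floor and in 1.29% of all 27305 promoters of that length. A TATA box, searched as TATAAA, was found in 6 of the 19 and in 4.95% of those above the floor.

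ERK targets that respond later, and genes whose products switch ERK off again, were the list with the largest share of higher members. DUSP6, a phosphatase that removes phosphate from ERK, read 139 with vehicle and 496 with HGF at 8 h, 74.7 and 369 at 2 h and 131 and 526 at 24 h. The HGF arrays were again all above the vehicle arrays. Its ratio was 1.81, that of DUSP5, another ERK phosphatase, was 1.75, and that of SPRY4, a Sprouty inhibitor of receptor tyrosine kinase signalling, was 1.57. FOSL1, an AP-1 subunit, read 347 with vehicle and 1385 with HGF, a ratio of 2.00. MAFF, SPRY2, HMGA1, EPHA2 and ETV4 had ratios of 1.47, 1.15, 1.12, 1.04 and 1.03. In all 12 of 27 rose, or 44.4%, and 0 fell, with a median ratio of 0.52, or 0.86 after quantile normalization and 0.02 when scaled to the poly-A RNAs. Set against the vehicle arrays of 2 and 24 h the count of higher members was 14.

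The members of the receptor's own signalling chain did not move as a group. MET itself read 1529 with vehicle and 579 with HGF at 8 h in its brightest probe set, against 1420 and 1032 at 2 h and 1148 and 1519 at 24 h. The HGF array of 8 h was the lowest of the 6, and the log2 ratio was at most -1.66 over 4 probe sets. The exchange factors SOS1 and SOS2, which load RAS with GTP, had ratios of at most -0.88 and of -1.06, and the phosphatase PTPN11 one of at most -0.92. HRAS and the kinase MAP2K2 rose, with ratios of 1.24 and 0.69. Of 29 members above the floor 2 were higher (6.90%) and 6 lower (20.7%), near the 5.09% and 15.1% of all genes. After quantile normalization 4 were higher and 4 lower. The median of the list was 0.22, or 0.23 after quantile normalization and -0.63 when scaled to the poly-A RNAs. EGFR, a receptor that shares this chain, had a ratio of -0.54, and ADAM10, a protease that sheds membrane proteins, one of -2.19, with 1276 on the vehicle and 422 on the HGF array.

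Among single genes CDKN1A, which encodes the CDK inhibitor p21, had a large ratio. It read 208 with vehicle and 1178 with HGF at 8 h, with 184 and 812 at 2 h and 253 and 907 at 24 h. Every HGF array was thus well above every vehicle array, and the ratio at 8 h was 2.50, a 5.67-fold difference. SOX9, a transcription factor of progenitor cells in many epithelia, read 73.9 and 421 at 8 h, with a ratio of 2.46. It also had ratios of 1.88 at 2 h and 2.53 at 24 h. Inhibitors and cyclins of the G1 phase, with CDKN1A counted among them, gave no common direction. Of 21 members 2 rose, CDKN1A and CCNE1, and 4 fell, among the latter CCNE2, a G1 cyclin, at most at -1.40. Of 21 growth arrest and p53 target genes 2 rose, again CDKN1A and also SESN2. In that list 4 fell, among them PMAIP1, a pro-apoptotic BCL2 family member, at -1.15. In each of these 2 lists, which share CDKN1A, 9.52% were higher and 19.0% lower, against 5.09% and 15.1% of all genes. After quantile normalization 3 of the G1 genes and 2 of the growth arrest genes were higher, and 1 of each list was lower.

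Matrix proteolysis is the group of genes by which cells cut the matrix around them or hold that cutting back. TIMP1, an inhibitor of metalloproteinases, read 896 with vehicle and 4596 with HGF at 8 h, against 1010 and 1211 at 2 h and 1308 and 4756 at 24 h. The pair of 2 h thus lay close together and those of 8 and 24 h far apart. PLAUR, the receptor of urokinase, read 684 and 3060 at 8 h, 581 and 1286 at 2 h and 787 and 2340 at 24 h. The ratios at 8 h were 2.36 for TIMP1, 1.80 for PLAUR and 1.05 for PLAU, which is urokinase itself. MMP1, a collagenase, differed between the times: its ratio was 0.04 at 8 h and 4.75 at 24 h. Of 15 members above the floor 5 rose and 1, ADAM9, fell. Their median of 0.41, or 0.58 after quantile normalization, turned to -0.21 when scaled to the poly-A RNAs.

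Secreted signals rose in part. IL11, a cytokine of the interleukin 6 family, was at the floor of 30 with vehicle and at 272 with HGF at 8 h in its brightest probe set. Its mean ratio over both probe sets was at least 1.85. LIF, a cytokine of the same family, had a ratio of 1.16, and CXCL8, a chemokine for neutrophils, had 0.92 at 8 h against 2.34 and 2.61 at the other times, but -0.09 at 8 h when scaled to the poly-A RNAs. They were the 3 of 13 chemokines and cytokines above the floor that rose, and 0 fell. Subunits and feedback genes of NF-kB went both ways, with 7 of 17 higher and 3 lower. Among the higher was BCL2A1, an anti-apoptotic BCL2 family member, which was at the floor with vehicle and at 102 with HGF at 8 h and at 31.6 and 360 at 24 h, with a ratio at 8 h of at least 1.77. ICAM1, an adhesion receptor for leukocytes, and NFKBIE, an inhibitor of NF-kB, had ratios of 1.19 and 1.03. The lower members included BIRC2, an inhibitor of apoptosis, at -1.30. The median of these NF-kB genes was 0.54, or 0.64 after quantile normalization and -0.18 when scaled to the poly-A RNAs.

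The promoters of IL11 and PLAUR are shown because both hold the AP-1 site TGANTCA, to which FOSL1 and JUNB can bind. They are 300-base RefSeq windows on the minus strand of GRCh38.p14, at chr19:55370414-55370713 for IL11 and chr19:43670120-43670419 for PLAUR, and capitals mark the AP-1 site, or any CRE (TGACGTCA).
IL11: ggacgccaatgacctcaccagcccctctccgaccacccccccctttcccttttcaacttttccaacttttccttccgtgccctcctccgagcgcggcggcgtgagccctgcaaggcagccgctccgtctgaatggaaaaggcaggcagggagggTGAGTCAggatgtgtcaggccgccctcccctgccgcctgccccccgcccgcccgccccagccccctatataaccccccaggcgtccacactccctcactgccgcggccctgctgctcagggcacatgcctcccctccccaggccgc
PLAUR: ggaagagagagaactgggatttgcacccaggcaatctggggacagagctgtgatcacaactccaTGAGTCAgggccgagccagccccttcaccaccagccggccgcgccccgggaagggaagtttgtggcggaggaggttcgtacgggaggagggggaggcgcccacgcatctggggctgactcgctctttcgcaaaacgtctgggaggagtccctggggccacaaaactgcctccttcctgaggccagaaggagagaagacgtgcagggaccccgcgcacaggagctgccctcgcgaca
Searched on both strands, an AP-1 site was found in 23 of 429 promoters of genes higher in both scalings, or 5.36%, in 3.22% of 838 promoters of genes lower in both, in 4.20% of those above the floor and in 7.76% of all promoters. A site for NF-kB was found in 18.9%, 11%, 14.8% and 11.9% of these sets.

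**Figure D2:**
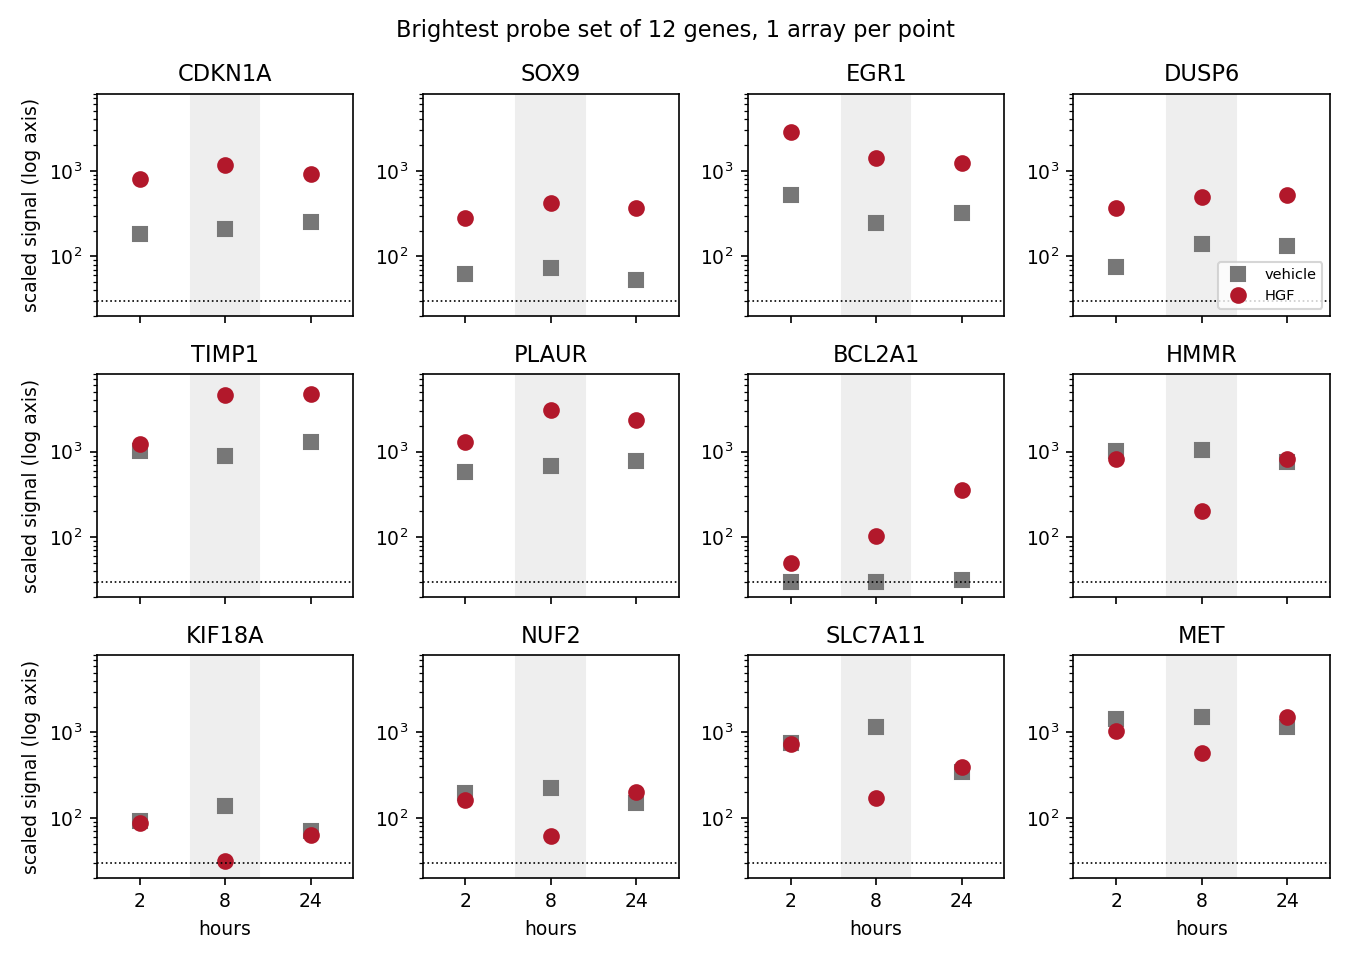
Scaled signal of the brightest probe set on a log axis for 12 genes, on the vehicle and HGF arrays of 2, 8 and 24 h, with 1 array a point and the floor of 30 as a dotted line. The HGF points of CDKN1A, SOX9, EGR1 and DUSP6 lie above the vehicle points at each time, whereas HMMR, KIF18A, NUF2 and SLC7A11 drop on the HGF array of 8 h, where HMMR reads 200 against 1055 for vehicle.

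Genes of the sugar and lipid supply were among those with large ratios. ANGPTL4, an inhibitor of lipoprotein lipase, read 140 with vehicle and 745 with HGF at 8 h, with 129 and 493 at 2 h and 127 and 394 at 24 h, so all HGF arrays were above all vehicle arrays. Its ratio was 2.34. G0S2, which blocks fat breakdown in lipid droplets, had a ratio of 1.78, the droplet coat protein PLIN3 one of 1.73, and hexokinase HK1, which starts glycolysis, one of 1.74. PFKFB3, whose product drives glycolysis, had 1.34. The list of hypoxia and glycolysis held 6 higher and 5 lower of 38, or 15.8% and 13.2%. That of fatty acids and lipid droplets held 5 higher and 2 lower of 32, or 15.6% and 6.25%. Among all genes 5.09% were higher and 15.1% lower. In sterol synthesis FDPS, NSDHL, DHCR7 and MVD, all enzymes of the cholesterol pathway, had ratios of 1.09, 1.09, 1.05 and 1.05. Of 25 sterol genes 5 rose and 1 fell, or 20% and 4%. For the vehicle array of 8 h these genes had a median log2 ratio of -0.33 over vehicle at 2 h and of -0.33 over vehicle at 24 h. With vehicle at 2 and 24 h in its place 0 of them passed in either direction and their median was -0.03, against 0.31 with that of 8 h and -0.52 when scaled to the poly-A RNAs.

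Genes of adhesion and of the actin skeleton, which carry cell movement, split by member. ZYX and VASP, proteins of focal adhesions, had ratios of 1.52 and 1.51, ACTN4, an actin crosslinker, 1.05, and ITGA5, the alpha subunit of a fibronectin receptor, 1.36. ROCK2, a kinase that makes actomyosin contract, had at most -1.46 and RDX, which links actin to the membrane, -1.02. Over 41 actin genes 8 rose and 5 fell, with a median of 0.13 that turned to -0.62 when scaled to the poly-A RNAs. ITGAV, a further integrin subunit, read 707 with vehicle and 186 with HGF at 8 h, where the other 4 arrays read 427 to 509, and had a ratio of -1.92. DSG2, a cadherin of desmosomes, had a ratio of -1.82, the tight junction protein TJP1 one of -0.84, and EPCAM, an adhesion molecule of epithelia, one of -1.11. Of 23 genes of cell junctions 1, CLDN3, rose and 5 fell, against 15.1% lower among all genes.

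The signature of stem-like cells that the study chose on these arrays is no independent evidence of its direction. Of its 5 genes SOX9 rose at 8 h, while CD24 fell with a ratio of -1.22 and ITGA6 fell with one of -0.75. CD44 had 0.35 and ITGA2 0.24, which did not pass. The mean of CD44 includes probe sets at the floor on both arrays, which count as 0. Its probe sets above the floor had ratios of 0.06 to 1.19. After quantile normalization 2 of the 5 signature genes were higher and 1 was lower. ITGA6, the alpha subunit of laminin receptors, had the opposite direction at 24 h, with a ratio of 1.84, and the difference between the times was not tested. HES1, a target of Notch, had a ratio of 0.72 and passed, whereas NOTCH1 at -0.09 did not. The Notch ligands JAG1 and DLL4 and the stem cell markers PROM1 and LGR5 were not above the floor on either array.

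Of 68 mitosis genes above the floor 29 were lower, or 42.6% against 15.1% of all genes, and 0 higher. HMMR, a spindle protein and hyaluronan receptor, read 1055 with vehicle and 200 with HGF at 8 h, while the other 4 arrays read 752 to 1014. KIF18A, a kinesin that aligns chromosomes, read 138 and 31.8, and NUF2, a part of the kinetochore, read 224 and 61.5. For these 3 genes the HGF array of 8 h was the lowest of the 6 and the vehicle array of 8 h the highest. Their log2 ratios were -2.24, -2.12 and -1.87. CENPK and CENPE, which belong to the kinetochore, had -1.90 and -1.88, the condensin subunits SMC2 and SMC4 both -1.77, ASPM, which acts at spindle poles, at most -1.61, KIF11, the kinesin that parts the spindle poles, -1.56, and the kinase CDK1 -1.11. The median was -0.66, or -0.53 after quantile normalization and -1.52 when scaled to the poly-A RNAs. Against vehicle at 2 and 24 h the count was 22 lower and 0 higher, with a median of -0.50. At 2 h and at 24 h 0 members passed in either direction. Few genes of any kind passed at these times, with 0.108% of all genes lower at 2 h and 1.08% at 24 h, and 0.817% and 2.01% higher. Fewer dividing cells and less of these RNAs per cell cannot be told apart in RNA of a whole culture.

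The 39 mitosis genes that did not pass had a median ratio of -0.04, against -1.32 for the 29, and 16 of the 39 were above 0. The rule splits the genes by the ratio itself, so a gap between these medians was given in advance. UBE2C and CDC20, which work with the ubiquitin ligase that ends mitosis, had 0.72 and 0.50, the kinase PLK1 0.54 and cyclin B1, CCNB1, 0.45. The checkpoint kinase BUB1 had -0.33 and BUB1B -0.45. The 5 probe sets of BUB1 ranged from -1.20 to 0, so its mean covers a probe set more than 2-fold lower. The lower members spanned more of the genome, with a median span from start to end of 48.2 kb against 22.8 kb for the others. The part of gene length in the difference was not tested.

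Promoters of mitotic genes are known to carry CHR elements (TTTGAA) and CCAAT boxes, through which factors of the cell cycle control them. Windows of 300 bases are given for 4 of the lower genes, from GRCh38.p14 RefSeq: HMMR (chr5:163460382-163460681, plus strand), KIF18A (chr11:28108107-28108406, minus strand), NUF2 (chr1:163321704-163322003, plus strand) and KIF11 (chr10:92592880-92593179, plus strand). Capitals mark CHR elements and CCAAT boxes on either strand.
HMMR: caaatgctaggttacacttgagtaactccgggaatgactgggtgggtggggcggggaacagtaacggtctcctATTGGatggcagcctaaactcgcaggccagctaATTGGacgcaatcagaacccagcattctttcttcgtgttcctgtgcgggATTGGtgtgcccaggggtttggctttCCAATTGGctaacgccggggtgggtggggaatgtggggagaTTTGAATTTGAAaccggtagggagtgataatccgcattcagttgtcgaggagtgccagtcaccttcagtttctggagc
KIF18A: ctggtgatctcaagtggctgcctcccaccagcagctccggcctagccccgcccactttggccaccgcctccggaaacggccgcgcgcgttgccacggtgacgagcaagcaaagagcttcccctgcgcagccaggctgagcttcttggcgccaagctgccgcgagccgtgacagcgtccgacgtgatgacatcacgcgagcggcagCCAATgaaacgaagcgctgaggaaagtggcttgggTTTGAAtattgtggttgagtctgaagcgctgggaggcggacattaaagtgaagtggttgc
NUF2: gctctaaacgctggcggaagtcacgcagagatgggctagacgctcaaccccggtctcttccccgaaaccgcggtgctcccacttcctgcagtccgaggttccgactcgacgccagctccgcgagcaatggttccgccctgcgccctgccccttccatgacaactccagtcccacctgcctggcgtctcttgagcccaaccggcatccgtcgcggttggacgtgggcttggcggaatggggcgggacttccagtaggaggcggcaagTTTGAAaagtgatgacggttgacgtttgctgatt
KIF11: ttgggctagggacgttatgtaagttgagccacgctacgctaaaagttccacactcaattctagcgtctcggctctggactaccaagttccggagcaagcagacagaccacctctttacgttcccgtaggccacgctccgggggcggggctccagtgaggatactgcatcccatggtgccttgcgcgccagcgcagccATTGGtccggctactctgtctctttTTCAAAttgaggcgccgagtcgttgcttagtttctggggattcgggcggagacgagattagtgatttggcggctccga
HMMR holds 2 CHR elements and 5 CCAAT boxes, KIF18A and KIF11 hold 1 of each, and NUF2 holds 1 CHR element and 0 CCAAT boxes. The window of CENPE, a lower gene that is not shown, holds 0 of each. A CHR element was found in 37 of 58 promoters of the mitosis list, or 63.8%, against 9.26% of promoters of genes above the floor and 15.4% of all promoters. For the CCAAT box the shares were 70.7%, 37.0% and 35.7%. Within the list a CHR element was found in 20 of 27 promoters of lower genes, or 74.1%, and in 17 of 31 of the others, or 54.8%, and a CCAAT box in 66.7% and 74.2%. Among all genes lower in both scalings 14.1% had a CHR element, and among those higher in both 4.66%. A match of letters is a description of the window and no proof of a binding site.

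DNA repair and damage signalling held the largest share of lower members, 26 of 49 or 53.1% against 15.1% of all genes. NBN, which senses double-strand breaks, had a ratio of at most -1.57, USP1, which takes ubiquitin off repair proteins, -1.57, SMC6 -1.50 and BRCA1 -1.27. ERCC1, an endonuclease subunit of excision repair, was the 1 member that rose, with a ratio of 1.51. The median was -0.68, or -0.50 after quantile normalization and -1.45 when scaled to the poly-A RNAs. Against vehicle at 2 and 24 h 13 were lower and 1 higher. Genes of DNA replication, which copy the genome in S phase, gave other values: of 51 above the floor 4 were lower and 0 higher, with a median of 0.01, or 0.08 after quantile normalization and -0.92 when scaled to the poly-A RNAs. Among 18 histone genes above the floor 5 were lower, with H2BC4 at -2.50, and 0 higher.

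**Figure D3:**
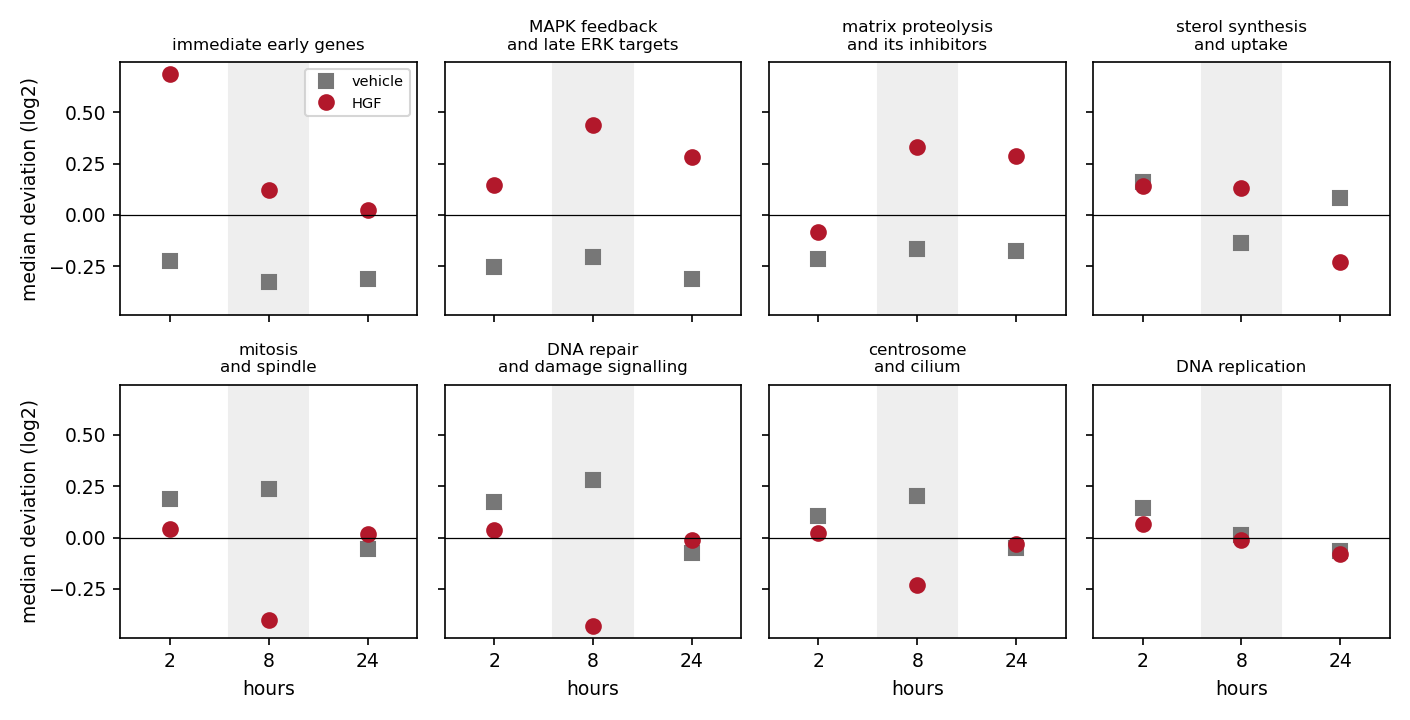
Arrays were scaled to a mean of 150. For 8 gene lists, points give the median over members of the log2 deviation of each array from the members' mean over the 6 arrays. Vehicle and HGF are separate points at each hour. The mitosis list reads 0.24 for vehicle and -0.40 for HGF at 8 h and 0.04 and 0.02 for HGF at 2 and 24 h, while ERK feedback genes lie above 0 on all HGF arrays, with 0.44 at 8 h.

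The medians over the 6 arrays describe where each array of a pair lay among the others. With 1 array a point, and other times that differ in time in culture, which side of a pair moved was not tested. For mitosis the vehicle arrays of 2, 8 and 24 h deviated by 0.19, 0.24 and -0.05 from the mean of the 6, and the HGF arrays by 0.04, -0.40 and 0.02. For DNA repair they were 0.17, 0.28 and -0.08 for vehicle and 0.04, -0.43 and -0.01 for HGF. In both lists the HGF array of 8 h lay below all other arrays, and the vehicle array of 8 h was the highest. For the ERK feedback genes the vehicle arrays read -0.25, -0.20 and -0.31 and the HGF arrays 0.14, 0.44 and 0.28, with no overlap. The immediate early genes read 0.69 with HGF at 2 h, 0.12 at 8 h and 0.02 at 24 h, and -0.22 to -0.32 with vehicle.

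Further lists held lower members and few higher ones. Of 42 ubiquitin-specific proteases, which take ubiquitin off proteins, 19 were lower and 0 higher, with USP47 at most at -1.55, USP8 at -1.49 and USP16 at -1.48. Of 66 genes of the centrosome and cilium 23 were lower and 0 higher, with CEP350, a large centrosome protein, at most at -1.53 and BBS10 at -1.53. Of 41 golgins and vesicle tethers 15 were lower and 0 higher, with the tethering subunits VPS54 at -1.45 and EXOC5 at -1.38. The medians of these 3 lists were -0.54, -0.43 and -0.44, or -0.28, -0.30 and -0.27 after quantile normalization. Against vehicle at 2 and 24 h they held 7, 8 and 5 lower members. The members of the 3 lists that were not lower, a group set by the ratio itself, had medians of -0.0055, -0.24 and -0.02. Among 69 chromatin remodellers and modifiers 20 were lower, such as KAT2B, an acetyltransferase, at -1.65, and 1, the demethylase KDM6B at 1.03 or more, was higher. Of 300 zinc finger genes with ZNF names 66 were lower, among them ZNF12 at -2.08, and 5 higher, with a median of -0.24, or -0.11 after quantile normalization. This share of 22.0% lower was nearer to the 15.1% of all genes.

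The genes with the lowest ratios came from several functions. SLC7A11, the transporter that brings in cystine for glutathione, read 1160 with vehicle and 171 with HGF at 8 h, 759 and 723 at 2 h and 342 and 393 at 24 h. The vehicle array of 8 h was thus the highest of the 6 and the HGF array of 8 h the lowest, with a ratio of -2.05. GCLC and GCLM, the subunits of the enzyme that starts glutathione synthesis, had -1.09 and -0.81. CLGN, a chaperone of the endoplasmic reticulum, had a ratio of at most -2.84, UPF2, which acts in nonsense-mediated decay, -2.24, the co-chaperone DNAJB4 at most -2.21, PALS1, which sets cell polarity, -2.12 and the secreted guidance protein SEMA3C -1.91. Of 31 chaperones and stress genes of the endoplasmic reticulum 9 were lower and 0 higher. Of 49 genes of mRNA decay 8 were lower, a share of 16.3% that was near the 15.1% of all genes, and 3 higher, among them ZFP36. KIF5B, the motor of many cargoes, had -1.57, and of 52 kinesins and dyneins 15 were lower and 2 higher. The lower ones included KIF11, KIF14, KIF15, KIF18A, KIF20B and KIF23, which were also counted in the mitosis list.

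Some lists of machinery present in all cells showed few changes of this size, against 5.09% higher and 15.1% lower among all genes. Of 70 genes of the respiratory chain and ATP synthase 0 were higher and 1, NDUFA5, was lower. Of 57 cytosolic ribosomal proteins 2 were higher and 1 lower, and of 75 mitochondrial ribosomal proteins 4 were higher and 3 lower. Of 41 proteasome genes 1 was higher and 4 lower. The medians of these 4 lists were 0.22, 0.09, 0.19 and 0.18, and all 4 were below 0 when scaled to the poly-A RNAs, at -0.64, -0.87, -0.59 and -0.65. Among 58 genes of ribosome biogenesis 6 were higher and 2 lower, with RRP9, a part of the small nucleolar particle, at 1.21 and NOP58 of the same kind of particle at -1.50. Other lists of such machinery held more lower members. They were 12 of 63 for RNA splicing (19.0%), 11 of 50 for nuclear pore and transport (22.0%) and 5 of 41 for translation factors (12.2%). In these lists 1, 1 and 0 were higher.

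Across all genes the direction followed the length of the gene. Genes higher in both scalings had a median span of 14.3 kb and those lower in both 57.5 kb, against 29.8 kb for all genes above the floor. With genes in 10 bins of equal size by span, the share of lower genes was 3.35% among the shortest and 27.9% in the bin before the longest, and that of higher genes 9.75% and 1.53%. After quantile normalization the lower shares were 1.91% and 18.2% and the higher shares 18.1% and 4.40%. The median ratio at 2 h was between -0.04 and -0.02 in all 10 bins and that at 24 h between -0.04 and 0.04. At 8 h it was 0.29 in the shortest and -0.27 in the ninth bin. Vehicle at 8 h over vehicle at 24 h had -0.13 and 0.23 in these bins, and over vehicle at 2 h -0.06 and 0.07. HGF at 8 h had 0.17 and -0.09 over HGF at 24 h, and 0.24 and -0.18 over HGF at 2 h. The part of each array in the trend was not tested. The GC content of the promoter moved less, with medians of 68.7%, 64.7% and 65.7%. Signal at the 3' end over that at the 5' end of control transcripts, a mark of RNA integrity, was 1.36 with vehicle and 1.31 with HGF for ACTB and 0.990 and 0.944 for GAPDH. The part of span, GC content and RNA quality in the calls was not tested. With the trend of the ratio with span and promoter GC removed, 537 genes were higher (5.13%) and 1174 lower (11.2%). The lists then held 27 of 68 mitosis genes lower and 0 higher, 21 of 49 DNA repair genes lower and 1 higher, 9 of 26 immediate early genes higher, and 11 of 27 ERK feedback genes higher.

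**Figure D4:**
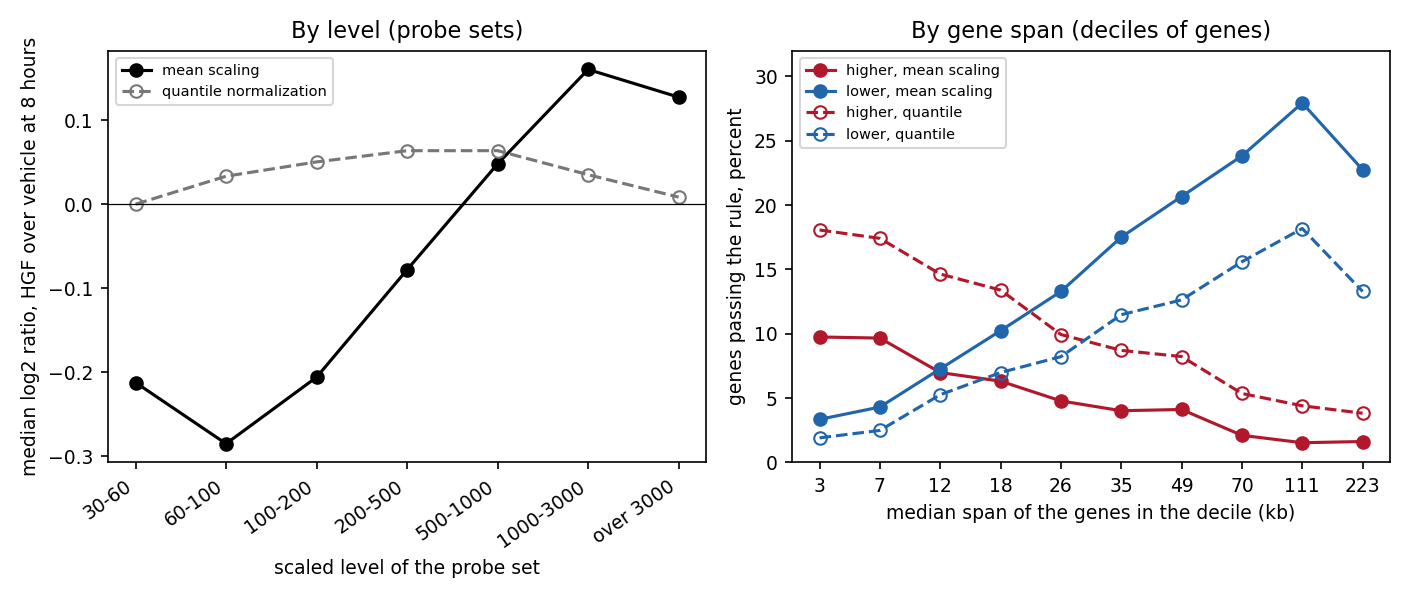
Median log2 ratio of HGF over vehicle at 8 h by level of the probe set for both scalings (left), and percent of genes higher and lower in 10 bins of gene span (right). With arrays scaled to a mean of 150 the median runs from -0.29 at levels of 60 to 100 up to 0.16 at 1000 to 3000, and the share of lower genes climbs from 3.35% among the shortest genes to 27.9% in the ninth bin.

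The pairs of 2 and 24 h, which share no array with that of 8 h, gave far fewer genes. At 2 h 83 genes were higher (0.817%) and 11 lower (0.108%), and at 24 h 206 were higher (2.01%) and 110 lower (1.08%). Of the higher genes 45 were shared between 8 and 2 h, which is 8.46% of those of 8 h and 54.2% of those of 2 h, and 69 between 8 and 24 h, which is 13.0% and 33.5%. Of the lower genes 2 were shared with 2 h and 18 with 24 h, or 0.127% and 1.14% of those of 8 h. The higher genes seen at other times included CDKN1A, with ratios of 2.14 and 1.84 at 2 and 24 h, and SOX9, whereas the mitosis genes that were lower at 8 h passed at neither of these times. The immediate early list had 19 higher members at 2 h, 11 at 8 h and 4 at 24 h, and the ERK feedback list 9, 12 and 10. These counts come from 1 array pair each, and their differences were not tested.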

How the data were processed

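RNA of DU145 cells was hybridised to 1 Affymetrix U133plus2.0 array per condition, with vehicle or HGF for 2, 8 or 24 hours. The values the authors deposited are linear intensities of 54675 probe sets. The submitters' processing notes name MAS5 (its version is not given in the sources used here). Besides this, the methods describe quantile normalization, a mean of 150 and a floor of 30, which the deposited intensities do not show, so the mean and the floor were applied here, with quantile normalization as an alternative. Samples were grouped by their labels. Of the probe sets 41097 have 1 symbol in the platform annotation, 1801 have several, 11777 are unnamed here and 6 controls were left out. A gene's log2 ratio is the mean over its probe sets. Genes were counted at 2-fold in 1 probe set and 1.4-fold on average. Alternatives were other scalings, floors, probe set rules, references and thresholds. No p-value was computed, and precision is limited by the number of arrays. Genes were compared over 61 lists with 2903 entries, of which 123 have no probe set of 1 symbol and were not analysed here. Members of lists were named by a rule that takes the 20 highest and 20 lowest genes in both scalings, the up to 5 highest and lowest of each list, genes the study names and 10 genes of opposite direction at 24 hours. It takes 563 genes, and JUNB, MAFF, SPRY2, HMGA1, EPHA2, ETV4, CDK1, ASPM, SMC2, SMC4, BRCA1, BUB1 and BUB1B were added after their values were seen. The comparison, lists and rule were chosen with earlier results of these data known. Gene spans and promoters of 300 bases are from RefSeq (GRCh38.p14), with 8661 promoters for the 10460 genes. Promoters were searched on both strands. Steps were tested on simulated data. Computing used statsmodels 0.14.6, matplotlib 3.10.9, scipy 1.17.1, pandas 2.3.3 and numpy 2.4.6 under Python 3.11.15.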

Additional observations from a re-analysis of the deposited data

Results flagged for a closer look

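Genes whose ratio passed in opposite directions at 8 and at 24 hours stood out, and the difference between the times was not tested, since each is 1 pair of arrays. Higher at 8 and lower at 24 hours were TNNC1, a troponin, with 1.11 and -3.01, MB, which is myoglobin, with 1.13 and -1.10, and the mucin MUC1 with 0.76 and -1.21. Lower at 8 and higher at 24 hours were MAP1B, a microtubule-binding protein, with -1.83 and 0.89, SELENOT with -1.51 and 0.71, the helicase RECQL with -1.25 and 0.85 and SMARCA5, a chromatin remodeller, with -1.13 and 0.78. In all 19 genes were lower at 8 and higher at 24 hours and 9 the other way, against 9 and 21 after quantile normalization. TNNC1 read -0.01 at 8 hours against the vehicle arrays of 2 and 24 hours.

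Probe sets without 1 gene symbol, which no comparison of genes used, also held signal that differed at 8 hours. Of 2572 above the floor, 14.1% were at least 2-fold lower and 2.84% at least 2-fold higher with HGF, against 15.7% and 3.86% of 18278 named probe sets.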

How the results depend on the processing

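Of 268 named genes that passed, 141 kept their call under the 4 other scalings and 74 under every alternative run. The number of higher genes, 532, became 1087 after quantile normalization, 906 with centred ratios, 1070 with the trend with level removed, 19 when scaled to the poly-A RNAs, 354 without probe sets shared between genes (_s_at and _x_at), 304 against the mean of 3 vehicle arrays, 282 against those of 2 and 24 hours and 68 at 3-fold. The number of lower genes, 1580, became 1004, 971 and 5680 under quantile normalization, the level trend and the poly-A scaling, 2452 and 1026 with a floor of 10 and 60, 828 and 546 against 3 and 2 vehicle arrays and 498 at 3-fold. The other settings left both counts within 1.5 times. Removing the trend with span, alone or with promoter GC, was added after seeing the data. Scaling to the poly-A RNAs turned the direction of CD274 (-0.26), CXCL8 (-0.086), FADD (-0.0072), FARSA (-0.12), FKBP4 (-0.080), KIF1C (-0.076), MUC1 (-0.23), RANGAP1 (-0.32), RPL18 (-0.15), RPS9 (-0.11), SESN2 (-0.36), TEAD4 (-0.23), TIMP2 (-0.099), TKT (-0.31), TNFAIP3 (-0.12), TNFRSF10A (-0.22) and ZFP36L1 (-0.0007), and the reference of vehicle at 2 and 24 hours that of TNNC1 (-0.011). Their causes were not tested. No paired analysis was possible because the comparison at 8 hours has 1 array a side, and a fit over the 3 times would not be one of 8 hours. For the same reason no replicate could be left out. Signals near the floor limit 600 lower and 77 higher genes to bounds.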
